A study of Mus musculus with 36 samples.

Results

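Untreated cDC2 were compared with untreated cDC1, both conventional dendritic cell types that the labels describe as induced from mouse cells with FLT3 ligand, the growth factor of dendritic cell precursors. The 6 libraries labelled as having received nothing were taken, replicates 4, 5 and 6 of cDC2 and replicates 1, 2 and 3 of cDC1, out of 36 libraries in the series. RNA was read with Smart-Seq2, a full-length protocol, from input normalised by cell number. The other libraries had received LPS (bacterial lipopolysaccharide, sensed by the receptor TLR4), PGPC (a phospholipid in oxidized form), the adjuvant alum, or LPS together with PGPC or with alum. Both groups share the FLT3 ligand culture and carry no treatment. The labels name no strain, genotype, sex or age, and no sort or marker by which the cells were separated into cDC2 and cDC1. The series' design text calls the replicates biological without saying whether each came from its own animal, so p-values measure the spread between these samples.

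Conventional dendritic cells arise from bone marrow precursors that carry the receptor FLT3, and they present antigen to T cells. The cDC1 branch depends on the transcription factors IRF8 and BATF3 and is known for cross-presenting antigen on MHC class I. The cDC2 branch carries the surface proteins SIRPα and CD11b, is linked to IRF4, and is known for presenting antigen on MHC class II. Plasmacytoid dendritic cells, the interferon-producing relatives, also form in FLT3 ligand cultures.

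Total counts were 3351868, 3887958 and 243870 in cDC2 replicates 4, 5 and 6, and 2471460, 8664027 and 7450622 in cDC1 replicates 1, 2 and 3. Levels below are CPM, each library's counts scaled to its TMM-adjusted total. Replicate 6 of cDC2 was the shallowest, and 1 of its counts is worth 3.74 CPM. Genes of the ribosomal RNA repeat took 28.6% to 37.3% of counts in cDC2 and 40.7% to 71.9% in cDC1, with the highest share in cDC1 replicate 1. Mitochondrial genes took 0.114% to 0.146% of counts in cDC2 and 0.260% to 0.718% in cDC1. Across the tested genes, Spearman's rho was 0.882 to 0.961 within cDC2, 0.871 to 0.905 within cDC1 and 0.738 to 0.868 between them. Refits without the shallowest library and without ribosomal RNA repeat genes are given below. The part of depth and of these shares in the results was not tested further.

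At an adjusted p under 0.05 (edgeR), 1265 of 12463 tested genes differed between untreated cDC2 and untreated cDC1, which is 10.2%. Of these, 500 were higher in cDC2 (4.01% of all tested genes) and 765 were lower (6.14%). With the ribosomal RNA repeat genes, CT010467.1 and Lars2 left out before scaling, a choice made after seeing the data, 611 genes were higher and 605 lower. With all 36 libraries in the fit 118 of 11482 genes were called, 36 higher and 82 lower, all of them among the 1265. In that fit the cDC1 list below had 4 calls, the plasmacytoid list 6, the cDC2 list 2 and the transcription factors 1 higher and 2 lower. The macrophage, PPARγ and LXR, inflammasome and interferon-stimulated lists had 1 call each there, and the MHC class II and pattern recognition lists 0. The median log2 fold change over all tested genes was -0.10. All 3 cDC2 libraries lay above all 3 cDC1 libraries for 14.9% of tested genes, and below them for 19.8%. The count of calls was 545 without cDC2 replicate 5, 669 without cDC1 replicate 2 and 721 without cDC2 replicate 4. Below, ± stands for the standard error of a log2 fold change, or for the SD of a mean level over 3 libraries. The rule for named genes, given with the processing, took 147 called genes, of which 78 kept their call with each of the 6 libraries left out in turn. Where a call named below was lost, the libraries whose omission lost it are given.

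Differences moved with the length of the transcript. Among 888 tested protein-coding genes with a median transcript under 1000 bases, 0.450% were called higher and 18.2% lower in cDC2, with a median log2 fold change of -0.95. Among 1612 genes over 5000 bases, 8.13% were called higher and 2.05% lower, with a median of 0.55. Genes under 1000 bases took 8.28% to 9.59% of protein-coding counts in cDC2 libraries and 12.9% to 17.6% in cDC1 libraries, without overlap. With each library's trend against length taken out, a setting added after seeing the data, 488 genes were higher and 595 lower, and 849 of the 1265 calls remained. Calls named below that were lost with the trend taken out are given as such. The part of length in the other differences was not tested.

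**Figure D1:**
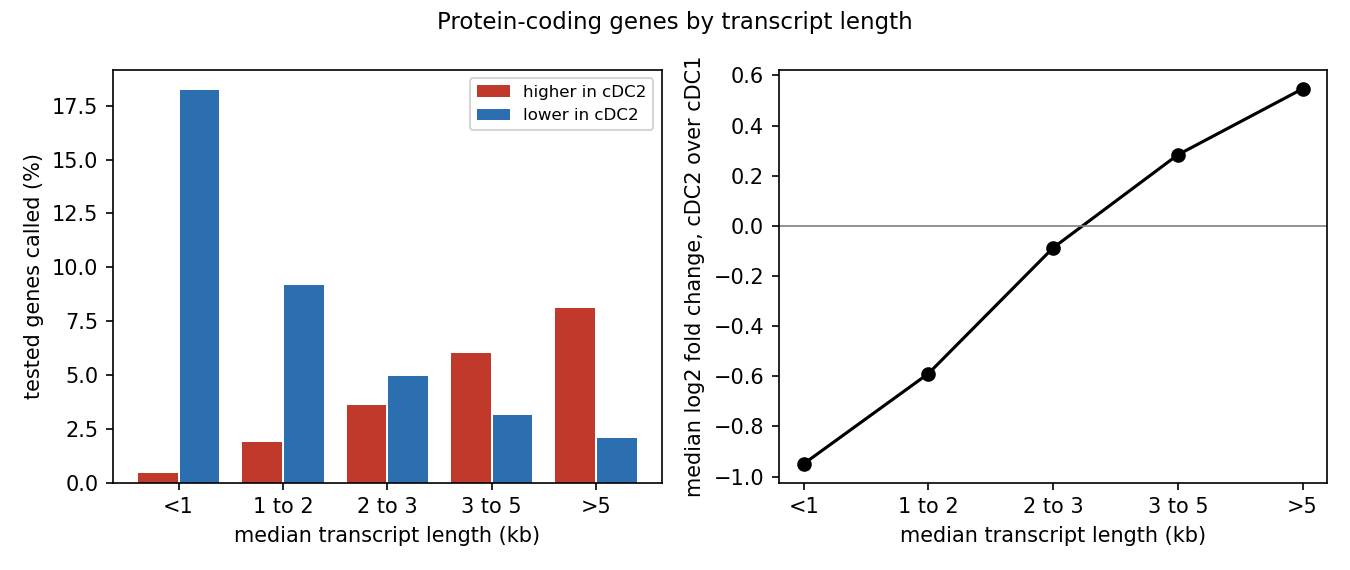
The left panel plots the percentage of tested protein-coding genes called higher (red) or lower (blue) in untreated cDC2 by median transcript length in kb, and the right panel the median log2 fold change of the same bins. The share called lower was 18.2% in the shortest bin and 2.05% in the longest, and the share called higher was 0.450% in the shortest and 8.13% in the longest.

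Genes that define cDC1 were lower in cDC2. Of 27 tested members of the cDC1 identity list, 11 fell and 1 rose (Cd36), with a median log2 fold change of -2.28. Irf8, the factor on which cDC1 depend (GRCm38 chr8:120736358-120756694 in GENCODE M21), had 61.4, 73.3 and 105 CPM in cDC2, against 1325, 810.0 and 561 CPM in cDC1. All 3 cDC2 libraries lay below all 3 cDC1 libraries, at a log2 fold change of -3.53 ± 0.47 (adjusted p = 5.53e-05). Batf3, its partner in cDC1, had 1.07, 0 and 3.74 CPM in cDC2, against 41.1, 38.8 and 23.2 CPM in cDC1, and its log2 fold change was -5.56 ± 0.92 (adjusted p = 0.000396). Mycl, a Myc family factor of cDC1, stood at 0.804, 2.58 and 0 CPM in cDC2, against 77.8, 69.1 and 50.9 CPM in cDC1, without overlap and with -5.36 ± 0.73 (adjusted p = 6.85e-05). Cd24a, a surface protein used to gate cDC1 in culture, had 16.3, 10.6 and 11.2 CPM in cDC2, against 73.6, 141 and 104 CPM in cDC1, a log2 fold change of -3.03 ± 0.51 (adjusted p = 0.000448). Naaa, a lipid amidase, fell by the same test with -3.76 ± 0.65 (adjusted p = 0.000545). Clec9a, the receptor for dead cells on cDC1, had 1.34, 0.517 and 0 CPM in cDC2, against 24, 14.4 and 72.5 CPM in cDC1. Its log2 fold change of -5.38 ± 1.22 (adjusted p = 0.00688) was lost without cDC2 replicate 5 (adjusted p = 0.0686). Itgae (CD103) had 2 counts in all cDC2 libraries, a level 63-fold (counting interval 17.3 to 523) lower, where the interval is at 95% and covers counting error only. Its call was lost without cDC2 replicate 4 (adjusted p = 0.0619). Tlr12, a receptor for parasite profilin, had 1.07, 0 and 0 CPM in cDC2, against 50.5, 25.8 and 44.2 CPM in cDC1, with -6.25 ± 1.47 (adjusted p = 0.0086), lost without cDC2 replicate 5 (adjusted p = 0.0745).

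The cDC1 label was not borne out by every marker. Xcr1, the chemokine receptor that marks mature cDC1, had 0.268, 0.775 and 0 CPM in cDC2, against 0, 0.38 and 0.151 CPM in cDC1, and the groups overlapped. Plet1 had no count in any of the 6 libraries, and Cd8a had counts in cDC1 replicate 3 alone. Tlr3, a receptor for double-stranded RNA that cDC1 carry in the spleen, had 4.02, 7.49 and 7.48 CPM in cDC2, against 0, 3.92 and 5.15 CPM in cDC1, and did not pass the test (adjusted p = 0.641). Tlr11 had 0, 0.258 and 0 CPM in cDC2, against 0.855, 0.253 and 2.12 CPM in cDC1 (adjusted p = 0.191).

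The cDC2 label was not borne out by every marker either. Of the cDC2 identity list 4 of 24 tested members were higher and 4 lower in cDC2, with a median log2 fold change of -0.65. That median was -0.29 with the length trend taken out and -0.33 with the 6 untreated libraries fitted alone. The summed level of the list went the other way, with 1848 to 2458 CPM in cDC2 libraries and 1596 to 1778 CPM in cDC1 libraries. The count of higher members was 0 without cDC1 replicate 2 or cDC2 replicate 5, 1 without cDC1 replicate 3 or cDC2 replicate 4 and 2 without cDC2 replicate 6. Sirpa, which encodes SIRPα, had 1192, 1264 and 838 CPM in cDC2, against 502, 354 and 218 CPM in cDC1. The 3 cDC2 libraries lay above the 3 cDC1 libraries, at a log2 fold change of 1.62 ± 0.46 (adjusted p = 0.0263), lost without cDC1 replicate 2 or cDC1 replicate 3 or cDC2 replicate 4 or cDC2 replicate 5 (adjusted p up to 0.103). Itgam (CD11b) had 149, 163 and 109 CPM in cDC2, against 54.7, 31.5 and 42.5 CPM in cDC1, also without overlap. Its log2 fold change of 1.74 ± 0.47 (adjusted p = 0.0175) was lost without cDC1 replicate 2 or cDC2 replicate 5 (adjusted p up to 0.0977). Cd4, carried by a subset of splenic cDC2, had 6.43, 4.91 and 15 CPM in cDC2, against 0.855, 0 and 0 CPM in cDC1, where the cDC1 value is 1 count. Its call was lost without cDC1 replicate 2 or cDC1 replicate 3 or cDC2 replicate 4 or cDC2 replicate 5 or cDC2 replicate 6 (adjusted p up to 0.152).

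Irf4, the factor linked to cDC2, went the other way. It had 2.41, 5.42 and 0 CPM in cDC2, against 17.1, 20.4 and 37.1 CPM in cDC1, without overlap, and a log2 fold change of -2.84 ± 0.60 (adjusted p = 0.00327). Ltb, the lymphotoxin beta chain expressed by splenic cDC2, had 1.07, 1.03 and 0 CPM in cDC2, against 15.4, 34.2 and 13.8 CPM in cDC1, with -4.40 ± 0.65 (adjusted p = 0.000149). Il1r2, a decoy receptor for interleukin 1, had 0.536, 0.775 and 0 CPM in cDC2, against 5.99, 16.1 and 8.63 CPM in cDC1, with -4.04 ± 0.92 (adjusted p = 0.00584), lost without cDC2 replicate 4 (adjusted p = 0.0543). Tmem176b was lower with -1.45 ± 0.41 (adjusted p = 0.0245), lost without cDC1 replicate 2 or cDC2 replicate 5 or cDC2 replicate 6 (adjusted p up to 0.189) and also with the length trend taken out (adjusted p = 0.15). Several cDC2 markers were scarcely detected. Cd209a had 0.268, 0.258 and 0 CPM in cDC2, against 0.855, 1.14 and 4.24 CPM in cDC1 (adjusted p = 0.36), and Clec4a4 had 0, 0.258 and 0 CPM in cDC2, against 0, 0 and 0.303 CPM in cDC1. Klf4 had 1.88, 3.62 and 0 CPM in cDC2, against 11.1, 2.4 and 4.39 CPM in cDC1 (adjusted p = 0.348). Zbtb46, a factor of conventional dendritic cells as against monocytes, had 11.8, 12.4 and 7.48 CPM in cDC2, against 45.3, 51 and 24.5 CPM in cDC1. It was lower in cDC2 with -1.82 ± 0.46 (adjusted p = 0.011), lost without cDC1 replicate 2 or cDC2 replicate 4 or cDC2 replicate 5 (adjusted p up to 0.0591). Itgax (CD11c), the general dendritic cell integrin, had 44.2, 57.3 and 7.48 CPM in cDC2, against 137, 50.0 and 115 CPM in cDC1, and the groups overlapped (adjusted p = 0.216).

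**Figure D2:**
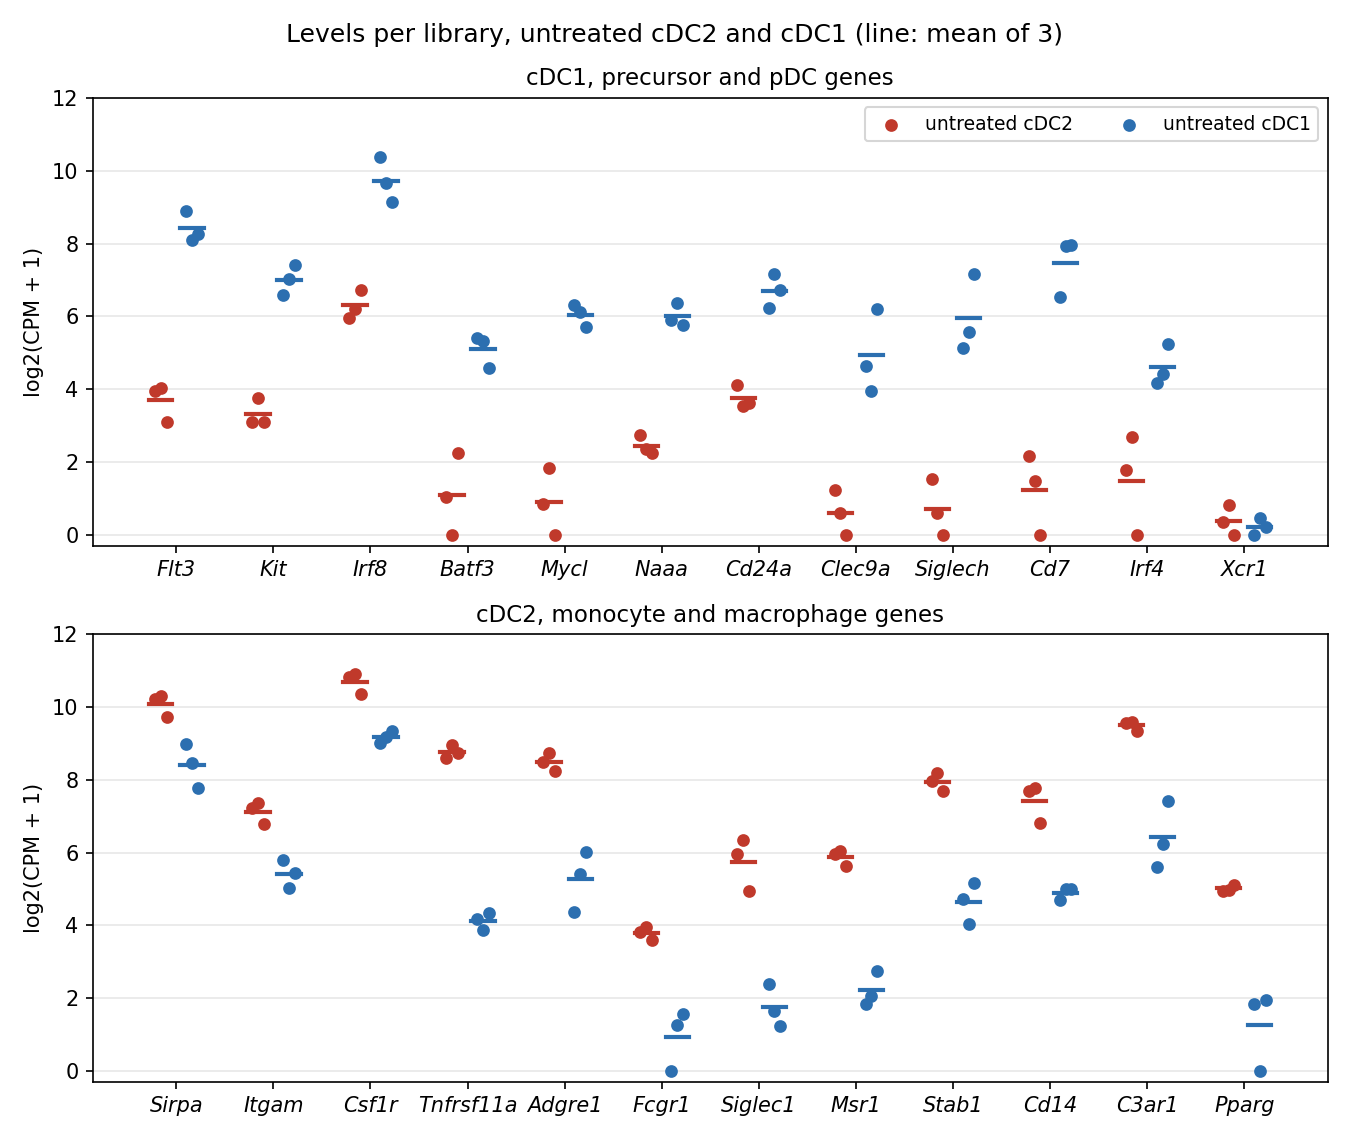
Each point is 1 untreated library, with untreated cDC2 (red) left of untreated cDC1 (blue) for each gene. The vertical axis is log2(CPM + 1) and the short lines are means of 3 libraries. The groups do not overlap for any gene shown except Xcr1. Over all tested genes they did not overlap for 14.9% (cDC2 higher) and 19.8% (cDC2 lower).

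Growth factor and cytokine receptors moved in both directions. Flt3, the receptor for the growth factor of the culture (chr5:147330741-147400489), had 14.5, 15.5 and 7.48 CPM in cDC2, against 473, 273 and 309 CPM in cDC1. The lowest cDC1 library stood far above the highest cDC2 library, at a log2 fold change of -4.68 ± 0.44 (adjusted p = 1.04e-06), the smallest adjusted p of all tested genes. Kit, the stem cell factor receptor of precursors, had 7.5, 12.4 and 7.48 CPM in cDC2, against 94.9, 129 and 169 CPM in cDC1, with -3.77 ± 0.50 (adjusted p = 5.07e-05). Csf1r, the receptor for the macrophage growth factor CSF1, had 1804, 1914 and 1309.6 CPM in cDC2, against 515, 583 and 647 CPM in cDC1. It was detected in both groups and higher in each cDC2 library, with 1.53 ± 0.50 (adjusted p = 0.0499), a call lost without any 1 of the 6 libraries (adjusted p up to 0.157) and with the length trend taken out (adjusted p = 0.0972). Tnfrsf11a, which encodes RANK (chr1:105780718-105847981), had 389, 494 and 427 CPM in cDC2, against 17.1, 13.5 and 19.4 CPM in cDC1. All cDC2 libraries were higher, at a log2 fold change of 4.71 ± 0.51 (adjusted p = 4.9e-06). Igf2r, the mannose 6-phosphate receptor, rose with 5.21 ± 0.94 (adjusted p = 0.000819), and Tnfrsf1b, a receptor for tumour necrosis factor, with 1.53 ± 0.31 (adjusted p = 0.0025). Ifnar2, a chain of the type I interferon receptor, had 93.2, 75.7 and 89.8 CPM in cDC2, against 441, 447 and 299 CPM in cDC1, and fell with -2.20 ± 0.36 (adjusted p = 0.000308). In the list of growth factor and cytokine receptors 7 of 33 rose and 4 fell, and the number that rose was 3 without cDC1 replicate 1 or cDC2 replicate 5 and 4 without cDC1 replicate 2.

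Transcription factors fell more often than they rose, with 13 of 43 list members lower and 5 higher in cDC2 and a median log2 fold change of -0.62, or -0.28 without cDC1 replicate 1. The number higher was 2 without cDC2 replicate 5 and 3 without cDC1 replicate 2 or cDC1 replicate 3. Besides the cDC1 factors, Bcl11a, which lymphoid and plasmacytoid cells need, had 5.89, 2.58 and 11.2 CPM in cDC2, against 269, 64.3 and 81.3 CPM in cDC1. Its log2 fold change was -4.77 ± 0.77 (adjusted p = 0.000308). Runx2, a factor of plasmacytoid cells, had 46.6, 48.3 and 33.7 CPM in cDC2, against 464, 248 and 314 CPM in cDC1, with -2.95 ± 0.50 (adjusted p = 0.000421). Spib, an ETS factor of the same lineage, had 11.5, 10.6 and 3.74 CPM in cDC2, against 69.3, 69.7 and 89.6 CPM in cDC1, with -2.93 ± 0.56 (adjusted p = 0.00138). Each of these was lower in every cDC2 library. Of those that rose, Pparg, the lipid-sensing receptor of alveolar macrophages (chr6:115360951-115490399), had 30.0, 30.5 and 33.7 CPM in cDC2, against 2.57, 0 and 2.88 CPM in cDC1. Its log2 fold change, 4.24 ± 0.85 (adjusted p = 0.00203), was the largest of the 5. Nr1h3, the oxysterol receptor LXRα, rose with 2.25 ± 0.58 (adjusted p = 0.0134), lost without cDC1 replicate 3 or cDC2 replicate 5 (adjusted p up to 0.0782). Relb, an NF-κB subunit, rose with 1.50 ± 0.47 (adjusted p = 0.0427), lost without any 1 of the 6 libraries (adjusted p up to 0.123).

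Markers of other cell types were measured beside these. Plasmacytoid dendritic cell genes were lower in cDC2, with 11 of 21 tested members called lower, 1 higher (Irf7) and a median log2 fold change of -2.93, or -1.95 with the length trend taken out. Their summed level was 269 to 574 CPM in cDC2 libraries and 1048 to 1314 CPM in cDC1 libraries. Siglech, the lectin that marks these cells, had 1.88, 0.517 and 0 CPM in cDC2, against 34.2, 46.9 and 142 CPM in cDC1. It was near 0 in every cDC2 library, with -6.03 ± 0.90 (adjusted p = 0.000236). Ly6d, a lymphoid progenitor antigen, had 0, 0 and 0 CPM in cDC2, against 6.84, 22.5 and 32.8 CPM in cDC1, at least 67.4-fold lower against a floor of 3 counts over the group. Cd7 had 3.48, 1.81 and 0 CPM in cDC2, against 91.5, 242 and 247 CPM in cDC1, with -6.30 ± 0.76 (adjusted p = 2.19e-05), and Atp1b1, a sodium pump subunit, had -4.97 ± 0.73 (adjusted p = 0.000149). Tcf4, the factor that plasmacytoid cells require, had 7.77, 6.46 and 15 CPM in cDC2, against 12.8, 15.6 and 19.8 CPM in cDC1, and did not pass the test (adjusted p = 0.297). Ccr9 had 1.61, 0.258 and 0 CPM in cDC2, against 2.57, 0.759 and 2.57 CPM in cDC1 (adjusted p = 0.595), and Dntt had counts in cDC1 replicate 2 alone. In these bulk samples fewer cells of a type and less RNA per cell cannot be told apart.

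Neutrophil and granulocyte precursor genes were lower, with 5 of 9 tested members called and none higher. The number was 1 without cDC2 replicate 5 and 2 without cDC2 replicate 4. Their summed level was 18.7 to 25.1 CPM in cDC2 and 60.7 to 235 CPM in cDC1. Prtn3, a primary granule protease, had 0.804, 0 and 0 CPM in cDC2, against 16.3, 40.2 and 22.2 CPM in cDC1, a level 81-fold (counting interval 27.6 to 394) lower in cDC2. S100a9, a calcium-binding protein of neutrophils, had 0, 0 and 0 CPM in cDC2, against 5.13, 49.5 and 14.8 CPM in cDC1, at least 82.8-fold lower, a call lost without cDC2 replicate 4 or cDC2 replicate 5 (adjusted p up to 0.0679). Of the B cell list 4 of 11 fell, and the number was 2 without cDC1 replicate 2 or cDC1 replicate 3 or cDC2 replicate 4 or cDC2 replicate 5 or cDC2 replicate 6. Tnfrsf13c, the BAFF receptor, had 1 count in cDC2 and was 224-fold (counting interval 40.0 to 8864) lower. Ighm, the immunoglobulin mu chain, had 13.1, 6.46 and 26.2 CPM in cDC2, against 121, 192 and 221 CPM in cDC1, with -3.84 ± 0.63 (adjusted p = 0.000383). Of the T and NK list 10 of 17 genes had no count in either group and 0 of the 2 tested members were called. The summed level of erythroid markers was at most 11.2 CPM in cDC2 and 6.36 CPM in cDC1, and of the mast cell list Kit alone was called. The part of such cells in the difference between cDC2 and cDC1 was not tested.

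Genes known from monocytes and macrophages were higher in cDC2. Of 24 tested members of that list, 7 rose and 1 fell (Ly6c2), with a median log2 fold change of 1.39, and the summed level was 15873 to 19434 CPM in cDC2 and 3203 to 9198 CPM in cDC1. The call of Ly6c2 was lost without cDC1 replicate 2 or cDC1 replicate 3 or cDC2 replicate 4 or cDC2 replicate 5 or cDC2 replicate 6 (adjusted p up to 0.176). With the length trend taken out 14 rose and 0 fell. Fcgr1, the high-affinity IgG receptor, had 13.1, 14.5 and 11.2 CPM in cDC2, against 0, 1.39 and 1.97 CPM in cDC1. There was no overlap, with 3.21 ± 0.66 (adjusted p = 0.00251). Adgre1, which encodes F4/80, had 361, 425 and 299 CPM in cDC2, against 19.7, 41.4 and 63.6 CPM in cDC1, with 3.10 ± 0.67 (adjusted p = 0.0037). Siglec1, the sialic acid receptor CD169, had 61.9, 79.8 and 29.9 CPM in cDC2, against 4.28, 2.15 and 1.36 CPM in cDC1, with 4.75 ± 1.12 (adjusted p = 0.00768). Each of the 3 was higher in every cDC2 library. Lyz2, Apoe and C1qa, which macrophages also express, did not pass the test. Lyz2, the lysozyme of myeloid cells, had 4056, 3458 and 3405 CPM in cDC2, against 734, 3236 and 3160.4 CPM in cDC1, the cDC2 libraries just above the highest cDC1 library (adjusted p = 0.409). Apoe had 2932, 2418 and 3555 CPM in cDC2, against 705, 1731 and 1259 CPM in cDC1, also without overlap (adjusted p = 0.164). C1qa, a complement subunit of tissue macrophages, had 15.3, 8.52 and 0 CPM in cDC2, against 3.42, 5.06 and 7.72 CPM in cDC1 (adjusted p = 0.539).

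Scavenger receptors and genes of lipid handling were higher too. Of 21 scavenger and lipid receptors 6 rose and 1 fell, with a median of 1.40, or 2.16 with the length trend taken out. Without cDC1 replicate 1, 4 rose, with a median of 1.03, and with all 36 libraries in the fit 1 rose and 1 fell. Members that rose and are not named here lost their call without cDC1 replicate 2 or cDC2 replicate 5. Stab1, stabilin 1, had 248, 293 and 206 CPM in cDC2, against 25.7, 15.6 and 34.8 CPM in cDC1. All cDC2 libraries were far above cDC1, and the log2 fold change was 3.30 ± 0.47 (adjusted p = 0.000108). Msr1, the class A scavenger receptor, had 61.6, 64.8 and 48.6 CPM in cDC2, against 2.57, 3.16 and 5.75 CPM in cDC1, with 3.87 ± 0.66 (adjusted p = 0.000448). Lrp1, an endocytic receptor for apolipoprotein E, had 1817, 1951 and 1437 CPM in cDC2, against 151, 159 and 321 CPM in cDC1, with 3.04 ± 0.53 (adjusted p = 0.000627). Cd36, the fatty acid and oxidized lipid receptor that was also on the cDC1 list, had 366, 316 and 382 CPM in cDC2, against 24.8, 42.5 and 160.3 CPM in cDC1. Its log2 fold change was 2.20 ± 0.51 (adjusted p = 0.00626), lost without cDC1 replicate 2 (adjusted p = 0.0509). Cd300c, the member that fell, had 2 counts in cDC2 and was 38.2-fold (counting interval 10.4 to 318) lower, a call lost without cDC2 replicate 4 or cDC2 replicate 5 (adjusted p up to 0.0753).

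Of 26 tested genes of PPARγ and LXR lipid handling, 10 rose in cDC2 and 0 fell, with a median of 1.14. At least 7 rose with any 1 library left out, 11 with the length trend taken out and 1 with all 36 libraries in the fit. Lpl, lipoprotein lipase, had 854, 799 and 674 CPM in cDC2, against 53, 189 and 125 CPM in cDC1. The groups were apart, with 2.66 ± 0.43 (adjusted p = 0.000308). Soat1, which esterifies cholesterol, had 1478, 1536 and 2249 CPM in cDC2, against 167, 195 and 558 CPM in cDC1, with 2.51 ± 0.46 (adjusted p = 0.000881). Mylip, the ligase that degrades the LDL receptor, had 75.3, 83.2 and 161 CPM in cDC2, against 31.6, 9.49 and 9.54 CPM in cDC1, with 2.70 ± 0.56 (adjusted p = 0.00272). Lipa, Pltp, Npc1 and Abcg1, genes of cholesterol release and transport, were also called, with log2 fold changes of 1.78 ± 0.43, 2.88 ± 0.69, 1.43 ± 0.39 and 1.63 ± 0.48. The call of Npc1 was lost without cDC1 replicate 2 or cDC1 replicate 3 or cDC2 replicate 5 or cDC2 replicate 6 (adjusted p up to 0.123) and that of Abcg1 without cDC1 replicate 1 or cDC1 replicate 3 or cDC2 replicate 4 or cDC2 replicate 5 (adjusted p up to 0.132). With the length trend taken out Npc1 had an adjusted p of 0.0549 and Abcg1 of 0.084. Of 15 tested complement genes 3 rose, all receptors or receptor chains (C3ar1, C5ar1 and Itgam), and 0 fell. C3ar1, the C3a receptor, had 757, 774 and 644 CPM in cDC2, against 47.9, 74.7 and 171 CPM in cDC1, with 2.88 ± 0.49 (adjusted p = 0.000474). C5ar1, the C5a receptor, had 296, 287 and 131 CPM in cDC2, against 23.1, 49.2 and 47.8 CPM in cDC1, with 2.57 ± 0.41 (adjusted p = 0.00031).

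**Figure D3:**
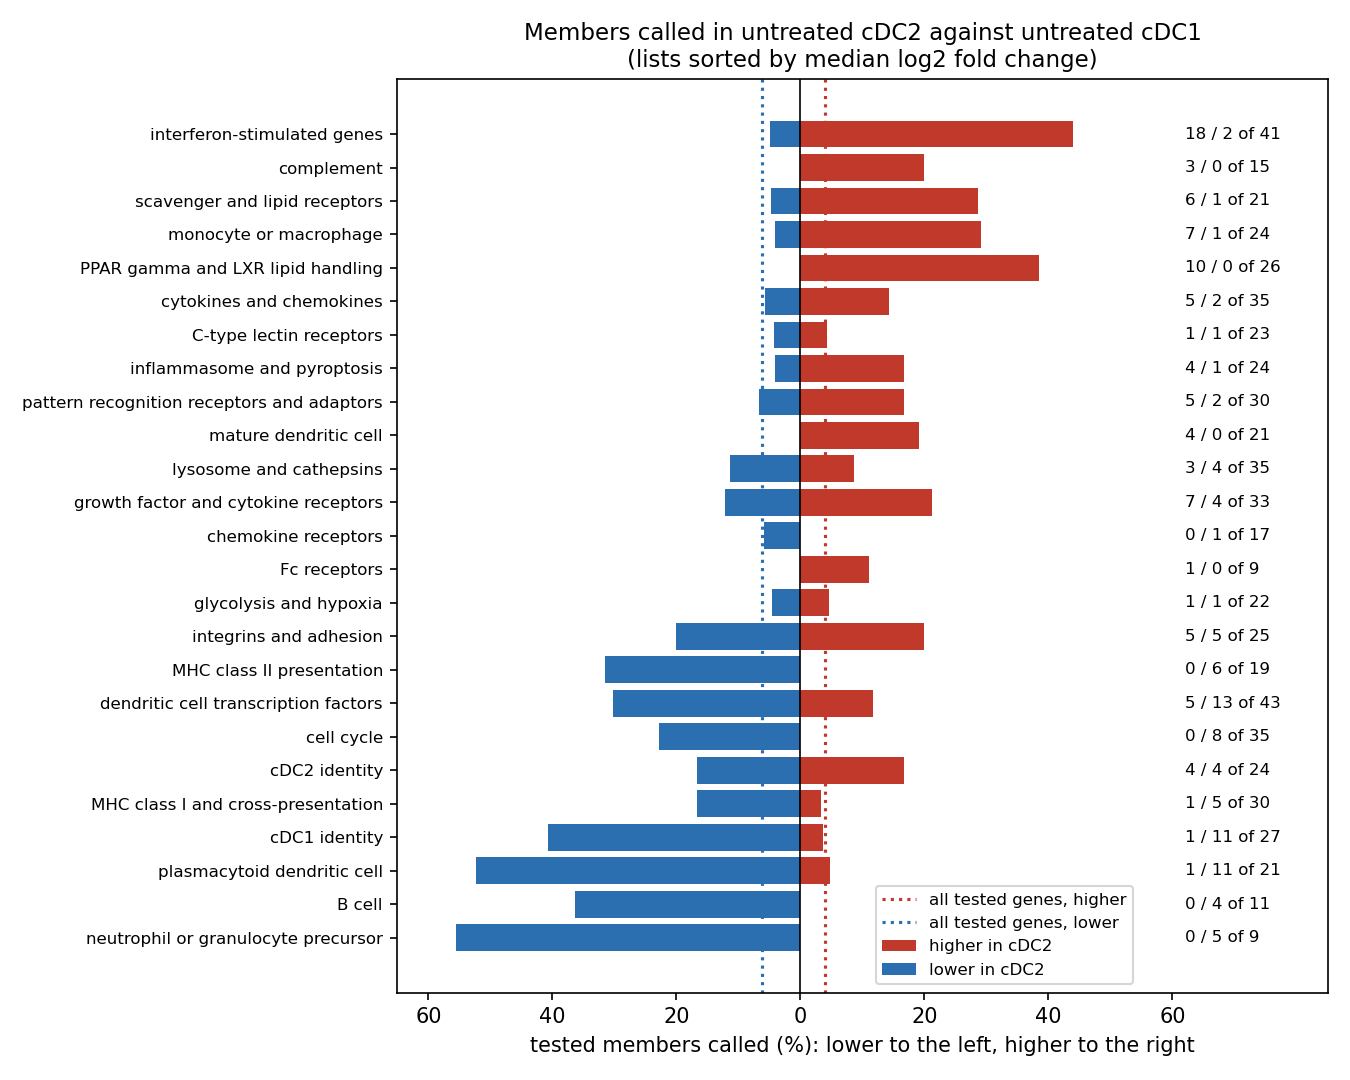
Bars give the percentage of tested members called higher (red, to the right) or lower (blue, to the left) in untreated cDC2, for lists with at least 9 tested members sorted by median log2 fold change, with the counts written beside them as higher / lower. Dotted lines mark the 4.01% and 6.14% of all tested genes. Interferon-stimulated genes (18 higher, 2 lower of 41) lead at the top and neutrophil genes (0 higher, 5 lower of 9) stand at the bottom.

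Several microbial sensors were higher in cDC2. Of 30 pattern recognition receptors and adaptors 5 rose and 2 fell, with a median of 0.60. The number that fell was near the 6.14% of all tested genes called lower. Tlr4, the LPS receptor, had 63.2, 46.2 and 67.4 CPM in cDC2, against 16.3, 8.73 and 10.3 CPM in cDC1. It was higher in each cDC2 library, with 2.35 ± 0.60 (adjusted p = 0.013), lost without cDC1 replicate 2 (adjusted p = 0.0756). Cd14, its co-receptor, had 204, 217 and 112 CPM in cDC2, against 24.8, 31.3 and 31.2 CPM in cDC1, with 2.62 ± 0.59 (adjusted p = 0.00524). Tlr13, a mouse receptor for bacterial ribosomal RNA, had 264, 272 and 258 CPM in cDC2, against 20.5, 17.2 and 38.9 CPM in cDC1, with 3.36 ± 0.71 (adjusted p = 0.00326). Tlr1 rose with 2.45 ± 0.56 (adjusted p = 0.00549). Tlr7 and Tlr9, the nucleic acid receptors of plasmacytoid cells, did not pass (adjusted p = 0.48 and 0.0916). Tlr9 had 33, 23.8 and 7.48 CPM in cDC2, against 46.2, 68.8 and 53.6 CPM in cDC1, and it passed with the length trend taken out (adjusted p = 0.0248). Of 23 C-type lectin receptors Clec4e, a sensor of mycobacterial glycolipid, rose with 3.47 ± 1.05 (adjusted p = 0.0368), lost without cDC1 replicate 1 or cDC1 replicate 2 or cDC1 replicate 3 or cDC2 replicate 5 (adjusted p up to 0.324), and Clec9a fell. These lectin counts were near the shares over all tested genes, 4.01% higher and 6.14% lower. With the length trend taken out 6 lectin receptors rose and 1 fell. Of 9 Fc receptors Fcgr1 alone was called. Cnpy3, a Toll-like receptor chaperone, was lower with -1.23 ± 0.34 (adjusted p = 0.0199), a call lost without cDC1 replicate 2 or cDC2 replicate 4 or cDC2 replicate 5 or cDC2 replicate 6 (adjusted p up to 0.0829) and with the length trend taken out (adjusted p = 0.311).

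Inflammasome genes are of interest because the series is about inflammasomes in dendritic cells. Of 24 tested members 4 rose and 1 fell in cDC2, and the number that rose was 2 without cDC1 replicate 1 or cDC1 replicate 2 or cDC2 replicate 5. Nlrp3, the sensor of the main inflammasome, had 49.6, 50.9 and 26.2 CPM in cDC2, against 6.84, 5.06 and 8.32 CPM in cDC1. The groups were apart, with 2.71 ± 0.58 (adjusted p = 0.00331). Mefv, which encodes pyrin, had 4.82, 9.81 and 3.74 CPM in cDC2, against 0, 0 and 0.605 CPM in cDC1, with 4.61 ± 0.96 (adjusted p = 0.00278). P2rx7, the ATP-gated channel, had 54.7, 75.7 and 41.2 CPM in cDC2, against 2.57, 7.72 and 13.3 CPM in cDC1, with 2.80 ± 0.83 (adjusted p = 0.0318), lost without cDC1 replicate 1 or cDC1 replicate 2 or cDC2 replicate 4 or cDC2 replicate 5 (adjusted p up to 0.126). Pycard, the adaptor ASC, went down. It had 44.7, 27.4 and 48.6 CPM in cDC2, against 93.2, 154 and 88.5 CPM in cDC1, with -1.52 ± 0.41 (adjusted p = 0.0175), lost without cDC1 replicate 2 or cDC2 replicate 4 or cDC2 replicate 5 (adjusted p up to 0.136). The effectors did not pass the test. Casp1 had 5.09, 6.71 and 3.74 CPM in cDC2, against 1.71, 6.07 and 7.42 CPM in cDC1 (adjusted p = 0.989), Casp4 had 3.48, 4.13 and 0 CPM in cDC2, against 0, 1.14 and 2.88 CPM in cDC1 (adjusted p = 0.411), and Gsdmd, the pore protein, had 57.9, 43.1 and 22.5 CPM in cDC2, against 62.4, 95 and 78.7 CPM in cDC1 (adjusted p = 0.276). Il1b had 2.14, 4.91 and 3.74 CPM in cDC2, against 0.855, 0.127 and 0.605 CPM in cDC1, all 3 cDC2 libraries higher (adjusted p = 0.0657, and 0.0233 with the length trend taken out). Il18 had 0.536, 1.03 and 0 CPM in cDC2, against 0, 4.18 and 1.21 CPM in cDC1 (adjusted p = 0.523).

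Of 35 cytokines and chemokines 5 rose and 2 fell in cDC2. The number that fell was near the 6.14% of all tested genes called lower. With all 36 libraries in the fit 0 rose and 1 fell. Tnf had 12.6, 24.3 and 7.48 CPM in cDC2, against 1.71, 1.39 and 4.09 CPM in cDC1, with 2.69 ± 0.55 (adjusted p = 0.0025). Ccl22, a chemokine of mature dendritic cells, had 31.1, 32.3 and 22.5 CPM in cDC2, against 3.42, 2.53 and 11.4 CPM in cDC1, with 2.28 ± 0.52 (adjusted p = 0.00554), and Ccl9 had 2.00 ± 0.45 (adjusted p = 0.0056). Igf1, a growth factor made by macrophages, had 143, 129 and 127 CPM in cDC2, against 4.28, 29.5 and 42.1 CPM in cDC1, with 2.34 ± 0.60 (adjusted p = 0.013). Il16 was lower with -2.37 ± 0.42 (adjusted p = 0.000637). Il12b had 0.268, 0.775 and 0 CPM in cDC2, against 0.855, 0 and 0.303 CPM in cDC1 (adjusted p = 0.64). Of 21 markers of mature dendritic cells 4 rose and 0 fell, and the number was 1 without cDC1 replicate 2 or cDC2 replicate 5 and 2 without cDC1 replicate 1. Ccr7, the receptor that leads to lymph nodes, had 151, 149 and 116 CPM in cDC2, against 39.3, 41 and 82.3 CPM in cDC1 (adjusted p = 0.114, and 0.0466 with the length trend taken out). Cd86, a co-stimulatory ligand, had 3.21, 5.42 and 0 CPM in cDC2, against 0.855, 7.85 and 5.3 CPM in cDC1 (adjusted p = 0.674).

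MHC class II genes fell in part. Of 19 tested members 6 fell and 0 rose, with a median of -0.44. With 1 library left out 4 to 6 fell, and the median was -0.25 without cDC1 replicate 3 and -0.67 without cDC1 replicate 1. With the length trend taken out 2 rose and 4 fell, with a median of -0.26, and with all 36 libraries in the fit 0 were called. H2-DMa, the peptide exchange chaperone, had 23.3, 15 and 41.2 CPM in cDC2, against 75.3, 303 and 213 CPM in cDC1. Every cDC2 library was lower, with -3.05 ± 0.49 (adjusted p = 0.000313). H2-DMb1, its partner chain, had -2.16 ± 0.43 (adjusted p = 0.00203), and H2-Oa, which inhibits that chaperone, -3.73 ± 0.66 (adjusted p = 0.000637). Ciita, the master regulator of these genes, had 30.5, 41.1 and 0 CPM in cDC2, against 182, 106 and 119.7 CPM in cDC1, with -2.28 ± 0.57 (adjusted p = 0.011). Of the presenting molecules, H2-Aa had 293, 228 and 161 CPM in cDC2, against 270.3, 885 and 639 CPM in cDC1, with overlapping groups and -1.39 ± 0.43 (adjusted p = 0.0416). That call was lost without cDC1 replicate 2 or cDC1 replicate 3 or cDC2 replicate 4 or cDC2 replicate 5 or cDC2 replicate 6 (adjusted p up to 0.236) and with the length trend taken out (adjusted p = 0.445). H2-Ab1 had 694, 554 and 677 CPM in cDC2, against 424, 905 and 728 CPM in cDC1 (adjusted p = 0.933), and Cd74, the invariant chain, had 1620.3, 1626 and 1279.7 CPM in cDC2, against 2018, 2462 and 2070.0 CPM in cDC1 (adjusted p = 0.376).

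Of 30 genes of MHC class I and cross-presentation 5 fell and 1 rose (Nlrc5). The number that rose was near the 4.01% of all tested genes called higher. The call of Nlrc5 was lost without cDC1 replicate 2 or cDC1 replicate 3 or cDC2 replicate 4 or cDC2 replicate 5 (adjusted p up to 0.21) and with the length trend taken out (adjusted p = 0.0836). Psmb9, a subunit of the immunoproteasome, had 11.8, 21.4 and 3.74 CPM in cDC2, against 70.1, 93.9 and 76.7 CPM in cDC1, with -2.48 ± 0.42 (adjusted p = 0.000421). Psmb8, another such subunit, had 84.9, 87.8 and 56.1 CPM in cDC2, against 237, 479.6 and 285 CPM in cDC1, with -2.10 ± 0.44 (adjusted p = 0.00268). Rab27a, a vesicle GTPase needed for cross-presentation in mouse dendritic cells, had 1.34, 3.1 and 3.74 CPM in cDC2, against 39.3, 27 and 25.1 CPM in cDC1, with -3.67 ± 0.74 (adjusted p = 0.0021). These groups did not overlap. Psme1, the proteasome activator, was lower with -2.10 ± 0.41 (adjusted p = 0.00167), lost with the length trend taken out (adjusted p = 0.112). Wdfy4, which cDC1 need to cross-present, had 96.7, 101 and 41.2 CPM in cDC2, against 272, 198 and 300.0 CPM in cDC1 (adjusted p = 0.114).

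Adhesion molecules fell and rose in equal number, 5 of 25 each way. The number that rose was 0 without cDC1 replicate 2, 2 without cDC2 replicate 5 and 3 without cDC1 replicate 1, and the number that fell was 3 without cDC2 replicate 4. Selplg, the P-selectin ligand, had 261, 309.9 and 183 CPM in cDC2, against 663, 1029 and 841 CPM in cDC1, with -1.74 ± 0.39 (adjusted p = 0.00454). Jaml had 1 count in cDC2, a level 104-fold (counting interval 18.4 to 4124) lower. Itga6, an integrin for laminin, had 156, 143 and 97.3 CPM in cDC2, against 12, 13 and 11.7 CPM in cDC1, with 3.44 ± 0.89 (adjusted p = 0.0142), lost without cDC1 replicate 2 (adjusted p = 0.0593). Itgav had 459, 436 and 318 CPM in cDC2, against 173, 19.1 and 25.1 CPM in cDC1, with 2.53 ± 0.66 (adjusted p = 0.0146), lost without cDC1 replicate 2 or cDC1 replicate 3 (adjusted p up to 0.0817). S1pr4 was the called member of 17 chemokine and lipid migration receptors, lower with -4.87 ± 1.05 (adjusted p = 0.00354). That share was near the 6.14% of all tested genes called lower.

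Of 35 lysosomal genes 3 rose and 4 fell, with a median log2 fold change of 0.48. Their summed level was 37837 to 61069 CPM in cDC2 and 28733 to 35655 CPM in cDC1. With the length trend taken out 7 rose and 3 fell, and by DESeq2 9 rose and 4 fell. With all 36 libraries in the fit 1 rose and 1 fell. Ctsb, cathepsin B, had 13795, 17471 and 11476 CPM in cDC2, against 3568, 4749 and 3991 CPM in cDC1. It was higher in each cDC2 library, with 1.80 ± 0.43 (adjusted p = 0.00751), a call lost with the length trend taken out (adjusted p = 0.0684). Mitf, a factor of lysosome biogenesis, had 42.1, 53.2 and 33.7 CPM in cDC2, against 8.55, 5.06 and 5.45 CPM in cDC1, with 2.85 ± 0.52 (adjusted p = 0.000939). Atp6v1a, a proton pump subunit, had 2.28 ± 0.46 (adjusted p = 0.00203). Cst3, cystatin C, an inhibitor of cathepsins that dendritic cells make in quantity, had 419, 315 and 427 CPM in cDC2, against 1524, 2828 and 1541 CPM in cDC1, with -2.35 ± 0.43 (adjusted p = 0.000939). Gm2a, a lipid transfer protein, had -1.85 ± 0.33 (adjusted p = 0.000637). Of 35 cell cycle genes 8 fell and 0 rose. The number that fell was 1 without cDC2 replicate 4 or cDC2 replicate 5 and 3 without cDC1 replicate 2 or cDC2 replicate 6. Ube2c, a mitotic ubiquitin enzyme, had 5.09, 3.1 and 0 CPM in cDC2, against 18.8, 68.1 and 27.9 CPM in cDC1, with -3.41 ± 0.73 (adjusted p = 0.00336), and Ccnb2, a mitotic cyclin, had 4.29, 3.87 and 7.48 CPM in cDC2, against 61.6, 63 and 35.1 CPM in cDC1, with -3.55 ± 0.86 (adjusted p = 0.00883), lost without cDC2 replicate 4 or cDC2 replicate 5 (adjusted p up to 0.0745). Of 22 glycolysis genes Hk3 was called higher and Gpi1 lower, shares near the 4.01% and 6.14% of all tested genes. Hk3 had 2.86 ± 0.76 (adjusted p = 0.0168), lost without cDC1 replicate 1 or cDC1 replicate 2 or cDC2 replicate 5 (adjusted p up to 0.071). Gpi1 had -1.15 ± 0.35 (adjusted p = 0.0353), lost without cDC1 replicate 1 or cDC1 replicate 2 or cDC2 replicate 4 or cDC2 replicate 5 or cDC2 replicate 6 (adjusted p up to 0.152).

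Interferon-stimulated genes, which the type I interferon receptor switches on through the factor ISGF3, rose in cDC2 in 18 of 41 tested members and fell in 2, with a median log2 fold change of 2.37, or 0.85 without cDC2 replicate 5. The summed level of the list was 546 to 2673 CPM in cDC2 and 686 to 939 CPM in cDC1, with replicate 5 of cDC2 the highest. Without that library 5 rose and 4 fell, without cDC1 replicate 2 the counts were 6 and 1, and without cDC1 replicate 1 they were 10 and 2, and 17 rose and 1 fell without any other 1 library. Oas3, an RNA-sensing synthetase, had 106, 231 and 59.9 CPM in cDC2, against 11.1, 9.24 and 17 CPM in cDC1. Replicate 5 was highest and all 3 cDC2 libraries were above cDC1, with 3.44 ± 0.74 (adjusted p = 0.00383). Oasl2 of the same family had 87.3, 181 and 44.9 CPM in cDC2, against 3.42, 3.42 and 13.5 CPM in cDC1, with 3.91 ± 0.86 (adjusted p = 0.00466). Oas1a had 36.2, 65.3 and 26.2 CPM in cDC2, against 0, 4.18 and 10.6 CPM in cDC1, with 2.97 ± 0.60 (adjusted p = 0.0021), and its reads may be shared with near-identical Oas1 copies. Ddx60, a helicase, had 3.75, 16.5 and 0 CPM in cDC2, against 0, 0 and 0 CPM in cDC1, at least 51.8-fold higher in cDC2, and replicate 6 with its 243870 counts held none.

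Calls of other members were lost without single libraries, replicate 5 of cDC2 among them. Irf7, the amplifier of interferon induction, had 55.5, 179 and 41.2 CPM in cDC2, against 24, 7.59 and 21 CPM in cDC1, with 2.48 ± 0.61 (adjusted p = 0.00969), lost without cDC1 replicate 2 or cDC2 replicate 5 (adjusted p up to 0.171). Isg15, a ubiquitin-like modifier, had 2.68, 10.1 and 7.48 CPM in cDC2, against 2.57, 0.253 and 1.36 CPM in cDC1, with 2.66 ± 0.84 (adjusted p = 0.0446), lost without cDC1 replicate 2 or cDC1 replicate 3 or cDC2 replicate 5 or cDC2 replicate 6 (adjusted p up to 0.401). Ddx58 (RIG-I, a cytosolic RNA sensor, on the receptor list) had 14.7, 51.1 and 15 CPM in cDC2, against 3.42, 3.42 and 2.57 CPM in cDC1, with 3.22 ± 0.70 (adjusted p = 0.00401), lost without cDC2 replicate 5 (adjusted p = 0.0933). Cxcl10, an interferon-induced chemokine, had 1.88, 15 and 0 CPM in cDC2, against 0, 0.886 and 0.605 CPM in cDC1, with 3.42 ± 0.90 (adjusted p = 0.0177), lost without cDC1 replicate 2 or cDC1 replicate 3 or cDC2 replicate 5 (adjusted p up to 0.571). The members that fell encode antiviral membrane proteins. Ifitm1 had 3.75, 3.36 and 7.48 CPM in cDC2, against 48.8, 100.1 and 88.8 CPM in cDC1, with -4.34 ± 0.61 (adjusted p = 9.87e-05). Bst2, tetherin, also on the plasmacytoid list, had 31.9, 52.4 and 3.74 CPM in cDC2, against 47, 146 and 119 CPM in cDC1, with overlapping groups and -1.66 ± 0.53 (adjusted p = 0.0468), lost without cDC1 replicate 2 or cDC1 replicate 3 or cDC2 replicate 4 or cDC2 replicate 6 (adjusted p up to 0.2) and with the length trend taken out (adjusted p = 0.386).

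**Figure D4:**
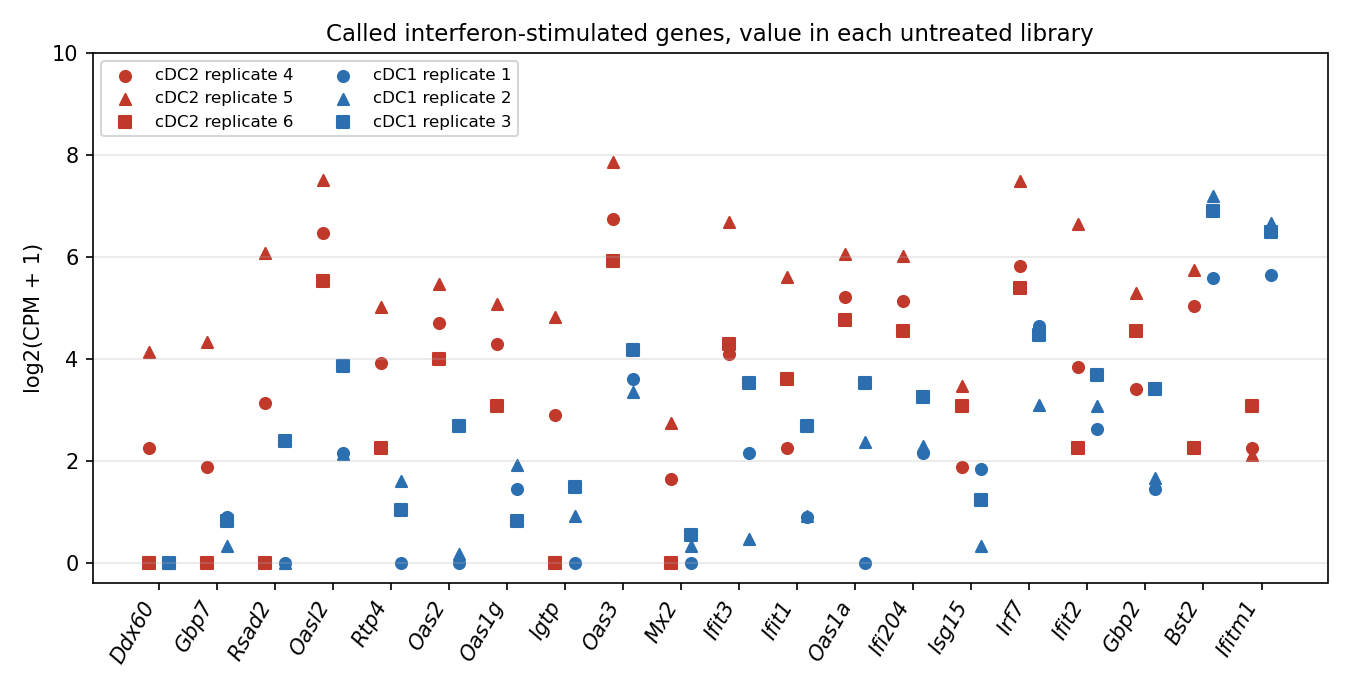
Every called interferon-stimulated gene is shown with its 6 untreated libraries, cDC2 (red) left of cDC1 (blue), on a log2(CPM + 1) axis with a marker shape per replicate. Replicate 5 of cDC2 (red triangles) is the highest cDC2 library for all genes shown but Ifitm1, and Bst2 and Ifitm1 are the genes with the higher mean in cDC1.

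The promoters of these genes were read from RefSeq (GRCm38.p6) because members of the list rose together. A motif of 2 copies of GAAA separated by any 2 bases, the core of the interferon-stimulated response element that ISGF3 binds, was searched on both strands of the 250 bases before each gene start, with overlapping matches counted as separate. It was found in 11 of 14 promoters of the members called higher (78.6%), in 1 of 2 of those called lower (50.0%) and in 20 of 32 of all tested members (62.5%), against 3.04% of 27025 promoters. The list was chosen as known interferon-stimulated genes, so its share above all promoters follows from membership and is no result about cDC2. Oasl2, Irf7 and Ifit2 rose and held no match, and Bst2 fell and held a pair. A match describes these letters and is not a binding site. Shown, for members chosen after values were seen, are the 150 bases before the start of 4 that rose and hold the motif, of Oasl2, which rose without it, of Bst2, which fell and holds it, and of Ifitm1, which fell without it, with the motif in capitals and the rest in lower case. They lie at chr5:120777660-120777809 (minus strand) for Oas3, chr5:120907526-120907675 (minus strand) for Oas1a, chr8:61927937-61928086 (plus strand) for Ddx60, chr4:156200819-156200968 (minus strand) for Isg15, chr5:114896784-114896933 (plus strand) for Oasl2, chr8:71537473-71537622 (minus strand) for Bst2 and chr7:140967926-140968075 (plus strand) for Ifitm1, each written 5′ to 3′ along its gene.
Oas3: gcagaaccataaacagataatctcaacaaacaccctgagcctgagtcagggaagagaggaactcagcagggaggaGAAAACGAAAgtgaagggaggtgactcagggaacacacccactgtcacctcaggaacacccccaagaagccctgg
Oas1a: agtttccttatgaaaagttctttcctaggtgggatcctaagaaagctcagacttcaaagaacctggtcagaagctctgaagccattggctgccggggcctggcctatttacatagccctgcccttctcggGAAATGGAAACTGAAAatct
Ddx60: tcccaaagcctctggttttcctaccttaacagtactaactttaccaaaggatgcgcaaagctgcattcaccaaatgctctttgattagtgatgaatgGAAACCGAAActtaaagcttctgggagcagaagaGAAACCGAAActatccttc
Isg15: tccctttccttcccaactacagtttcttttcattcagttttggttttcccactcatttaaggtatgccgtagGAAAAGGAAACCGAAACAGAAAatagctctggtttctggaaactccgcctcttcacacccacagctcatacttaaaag
Oasl2: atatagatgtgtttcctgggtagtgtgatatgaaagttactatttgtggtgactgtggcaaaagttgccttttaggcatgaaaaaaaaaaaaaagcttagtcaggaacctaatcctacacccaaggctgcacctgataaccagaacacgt
Bst2: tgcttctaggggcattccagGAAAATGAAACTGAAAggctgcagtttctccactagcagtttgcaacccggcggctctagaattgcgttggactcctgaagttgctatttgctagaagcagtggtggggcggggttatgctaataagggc
Ifitm1: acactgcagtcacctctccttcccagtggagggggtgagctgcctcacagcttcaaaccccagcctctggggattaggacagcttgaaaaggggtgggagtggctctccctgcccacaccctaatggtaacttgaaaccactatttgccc
The match in Oas3 starts 75 bases before the gene start, those in Ddx60 at 53 and 19 bases, those in Oas1a at 20 and 14 bases, those in Isg15 at 78, 72 and 66 bases and those in Bst2 at 130 and 124 bases. In Oas1a, Isg15 and Bst2 they overlap into 1 run. Over all genes called higher in cDC2, the 11 above among them, the motif stood in 24 of 388 promoters (6.19%). Over those called lower, the 1 above among them, it stood in 21 of 546 (3.85%), against 3.01% of 9428 tested genes with a promoter.

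The largest changes held genes outside these lists. Higher in cDC2 without a count in cDC1 was Slc4a3, an anion exchanger, with 8.57, 15.2 and 15 CPM in cDC2, against 0, 0 and 0 CPM in cDC1, at least 63.1-fold higher. Acod1, which makes the macrophage metabolite itaconate, had 13.1, 128 and 11.2 CPM in cDC2, against 5.99, 0 and 0.151 CPM in cDC1, with 6.11 ± 1.16 (adjusted p = 0.00136). Efr3b had 6.51 ± 1.52 (adjusted p = 0.00688), Eno2, the neuronal enolase, 5.24 ± 1.12 (adjusted p = 0.00354), and Stra6l, a relative of a retinol transporter, 5.14 ± 1.05 (adjusted p = 0.00235). Plau, urokinase, had 116, 103 and 109 CPM in cDC2, against 0, 1.39 and 4.39 CPM in cDC1. The groups were far apart, with 5.54 ± 1.34 (adjusted p = 0.00886), lost without cDC1 replicate 2 (adjusted p = 0.0559). Genes without a count in cDC2 included Ptprcap, the CD45-associated protein of lymphocytes, at 0, 0 and 0 CPM in cDC2, against 12, 21.8 and 11.5 CPM in cDC1, at least 43.8-fold lower. Sh2d5 was at least 41.7-fold lower and Slco3a1, an organic anion transporter, at least 43-fold lower. Tbxa2r, the thromboxane receptor, was at least 44.9-fold lower, lost without cDC2 replicate 4 or cDC2 replicate 5 (adjusted p up to 0.0808).

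The same contrast was then read in other libraries, those of cDC2 and cDC1 with LPS, with LPS and PGPC, and with PGPC. Of the 500 genes higher in untreated cDC2, 414 (82.8%) had a log2 fold change of the same sign with LPS and 168 (33.6%) were called there, and of the 765 lower genes 656 (85.8%) had the same sign and 118 (15.4%) were called. The background with LPS was 972 called genes, 7.8% of those tested in both directions together, 697 higher and 275 lower in cDC2. With LPS and PGPC, where 7.14% of tested genes were called, 440 of the higher genes (88.0%) and 689 of the lower genes (90.1%) had the same sign, and with PGPC alone 465 (93.0%) and 713 (93.2%). Called in untreated cells and in the same direction with LPS and with LPS and PGPC were 127 of the higher genes (25.4%) and 61 of the lower genes (7.97%). For shared signs and for these joint calls no share over all tested genes was computed. With LPS, Siglec1 differed by 8.38 ± 1.32 (adjusted p = 0.00021) on the log2 scale, Stab1 3.43 ± 0.48 (adjusted p = 6.06e-05) and Fcgr1 6.03 ± 0.69 (adjusted p = 5.06e-06). Bcl11a had -4.14 ± 0.71 (adjusted p = 0.000484), and Cd24a -2.56 ± 0.53 (adjusted p = 0.0024). Irf8 had 84.3 ± 19.5 CPM in cDC2, against 238 ± 78 CPM in cDC1, a log2 fold change of -1.50 ± 0.43 (adjusted p = 0.0315).

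The difference between contrasts was tested directly. It was called for 166 genes with LPS (1.33% of those tested) and for 38 with LPS and PGPC (0.305%). The genes named next were all called in untreated cells. The untreated contrast is subtracted here, so this choice favours contrasts that come closer. Flt3 came closer between the types. With LPS it had 56.7 ± 20.5 CPM in cDC2, against 109 ± 3.83 CPM in cDC1, and the contrast changed by 3.72 ± 0.55 (adjusted p = 0.00103) on the log2 scale. Ctsb, higher in untreated cDC2, had 9199.6 ± 5537 CPM in cDC2, against 506 ± 119.9 CPM in cDC1 and a change of 2.39 ± 0.59 (adjusted p = 0.0418), a larger log2 distance than in untreated cells. For C3ar1 the distance was smaller, with 604 ± 288 CPM in cDC2, against 628 ± 148 CPM in cDC1 and a change of -2.94 ± 0.66 (adjusted p = 0.0213). Tnfrsf11a also came closer, with 408 ± 150.4 CPM in cDC2, against 91.4 ± 49.7 CPM in cDC1 and a change of -2.56 ± 0.63 (adjusted p = 0.0384). Bst2, lower in untreated cDC2, had 329.5 ± 158 CPM in cDC2, against 75.5 ± 16.5 CPM in cDC1 with LPS, a log2 fold change there of 2.12 ± 0.53 (adjusted p = 0.0114) and a change of 3.78 ± 0.75 (adjusted p = 0.0112). The 166 became 75 to 109 without replicate 1 or 2 of cDC1 with LPS, replicate 5 or 6 of cDC2 with LPS, or any untreated cDC2 library, and 442 without replicate 4 of cDC2 with LPS. The 38 became 62 without replicate 1 and 22 without replicate 3 of cDC1 with LPS and PGPC, 18 without replicate 5 of cDC2 with LPS and PGPC, 24 without untreated cDC1 replicate 2, and 5, 16 and 19 without untreated cDC2 replicates 4, 5 and 6.

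**Figure D5:**
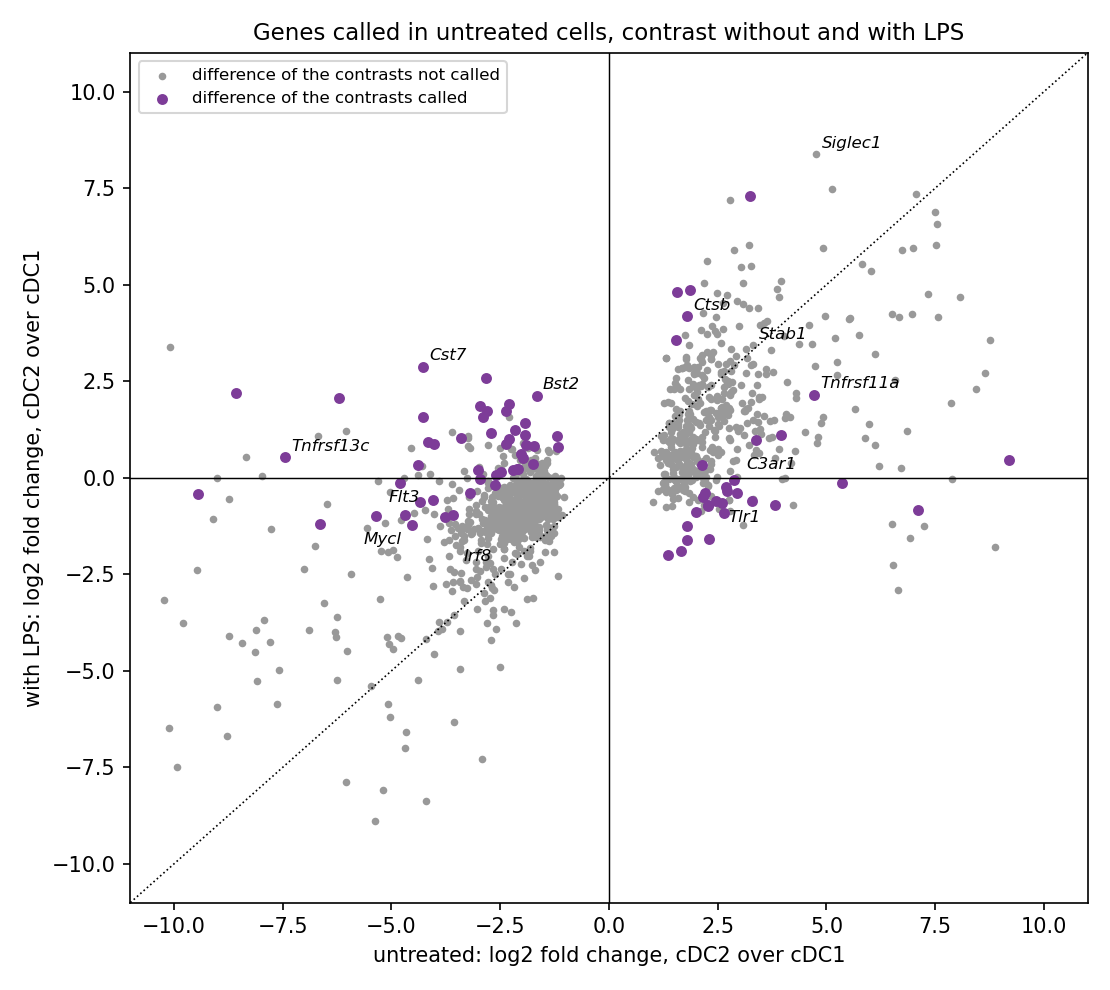
Each point is a gene called between untreated cDC2 and untreated cDC1, with its log2 fold change without treatment on the horizontal axis and with LPS on the vertical axis (cDC2 over cDC1 on both). Genes were chosen by their call without treatment, which favours smaller sizes on the vertical axis. The dotted line marks equal values, and purple points are genes whose difference between the contrasts was called, such as Flt3 (-4.68 and -0.95) and Ctsb (1.80 and 4.18).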

How the data were processed

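The authors deposited RSEM expected counts per gene symbol on GRCm38, per the labels and the submitters' processing notes, which also name bcl2fastq 2.2. The RSEM version, aligner and annotation are not stated there. Of nonzero values 21.0% were not whole, so the deposited expected counts were rounded.

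The 23 libraries without alum and without replicate 6 of cDC2 with PGPC were fitted together as 8 group means by robust quasi-likelihood in R 4.3.3 (edgeR 4.0.16 on limma 3.58.1), scaled by TMM. filterByExpr (minimum count 10, total 15) kept 12463 genes, and adjusted p-values are Benjamini-Hochberg over all of them, called under 0.05. The biological coefficient of variation was 0.545 with 15 residual degrees of freedom. A standard error is the log2 fold change over the root of its F. Unless another tool is named, adjusted p-values are edgeR's.

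Levels are CPM of TMM-scaled totals. In the library of 243870 counts 1 count is 3.74 CPM, so low genes are imprecise there. Folds against a group without counts are bounds at a floor of 3 counts over the group, and with 1 to 3 counts the ratio of summed counts has an exact conditional 95% counting interval. Reads carry no molecular identifiers, so these cover counting error only. Smart-Seq2 keeps no strand, so overlapping antisense genes cannot be told apart.

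In simulated data on 12122 genes the fit recovered 38% of genes changed 4-fold and 95% of those changed 16-fold for this comparison, with 4 false calls. The changed genes were drawn from those with the higher mean levels, and no other difference between groups was simulated. Genes with low levels, the length trend and the ribosomal RNA shares are therefore not covered. Transcript lengths are medians over GENCODE M21 transcripts of a symbol, promoters are RefSeq's, and figures used matplotlib 3.10.9.

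Named genes are called genes whose groups do not overlap and whose higher mean reaches 5 CPM (15 with the highest and 15 with the lowest fold change, predicted and mitochondrial genes left out), up to 5 members each way per list with the smallest adjusted p, and a panel of known genes. A few of these are not reported here. Called list members and markers at or near 0 beyond these were named after their values were seen. The members and lists were chosen with earlier results of these data known. Alternatives were RLE scaling, no filter, all 36 libraries, the 6 untreated libraries, ribosomal RNA genes left out, the length trend taken out, DESeq2 1.42.0, each library left out and, for differences between contrasts, the replicate number as a block. Whether same-numbered libraries share an animal or culture is not known. Their deviations from group means correlated at -0.041 to 0.134. Counting noise lowers such values, so they cannot decide it.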

Additional observations from a re-analysis of the deposited data

Results flagged for a closer look

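The genes below stood out because the cDC2 minus cDC1 contrast itself differed between LPS-treated and untreated cells in the interaction test (edgeR, adjusted p 0.00103 to 0.0493). Only genes taken by the rule for named genes were looked at. Outside that rule the change was also called with LPS for genes such as Lsp1, Plac8, Nrp2 and Slc37a2. With LPS and PGPC it was called for genes such as Plac8, Nrp2, Slc16a10 and Kmo. Values in parentheses are the log2 change of the contrast, treated minus untreated. Lower in untreated cDC2, with a contrast that moved towards or past 0 with LPS, were Bst2 (3.78), Cst7 (7.15), Flt3 (3.72), H2-T23 (3.03), Ifitm1 (3.72), Ifnar2 (2.41), Kit (2.77), Ly6c2 (4.81), Mycl (4.36), Psmb8 (2.34), Psmb9 (2.62), Psme1 (2.32), Runx2 (2.92), Selplg (2.09) and Tnfrsf13c (7.98). They include precursor and plasmacytoid genes (Flt3, Kit, Runx2, Bst2) and immunoproteasome subunits. Of the genes higher in untreated cDC2, the contrast fell with LPS for Atp6v1a (-3.00), C3ar1 (-2.94), Ccl22 (-2.98), Ccl9 (-2.89), Mylip (-3.04), Tlr1 (-3.05), Tnf (-2.94) and Tnfrsf11a (-2.56). It widened for Ctsb (2.39). Lcn2 (10.78), Slc4a3 (-8.74) and Slco3a1 (9.03) had no count in 1 untreated group, so the size of these fitted changes depends on the prior count. With LPS and PGPC the contrast changed for Atp1b1 (5.15), Cst7 (5.54), Flt3 (3.08), Mylip (-3.58) and Tnfrsf11a (-3.66), and for Slc4a3 (-10.29) and Slco3a1 (11.28) with the same limit (adjusted p 0.00753 to 0.0321). All these tests share the same 6 untreated libraries, and their causes were not tested. Most genes here were named because they were called between untreated cDC2 and untreated cDC1. That contrast is subtracted in this test, so the choice of genes favours a move towards 0.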

How the results depend on the processing

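The 1265 genes called between untreated cDC2 and untreated cDC1 became 118 with all 36 libraries in the fit, 545 to 1195 with 1 untreated library left out (545 without cDC2 replicate 5, 669 without cDC1 replicate 2, 721 without cDC2 replicate 4), and 1083 to 1860 under the other settings. Without a filter on low counts 653 were higher and 656 lower. Genes whose contrast differed with LPS were 166, and 425 without the filter, 6 with all 36 libraries, 428 by DESeq2 and 75 to 442 with 1 library left out. With LPS and PGPC they were 38, and 221, 3 and 224 under the same settings, 71 with the length trend taken out and 5 to 62 with 1 library left out, lowest without untreated cDC2 replicate 4. With the replicate block they were 163 and 46, and no block could be fitted for the untreated contrast, whose groups share no number. For the named genes 2007 values kept their direction and their side of the threshold, 381 lost it and 9 gained it, and 3 changed sign, none of them called. With 1 library left out, Casp1, at a log2 fold change of 0.034, ran from -0.26 (without cDC1 replicate 1) to 0.35 and was below 0 also without cDC2 replicate 5 (-0.19), and Cd86, at -0.43, ran from -0.94 to 0.058 (without cDC1 replicate 2). The causes were not tested. Depth limits genes under about 11.2 CPM in cDC2 replicate 6, where 3 counts make that level.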

Other observations

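Outside the lists, gene families were counted by their symbols, a choice made after values were seen. Cytosolic ribosomal proteins, short transcripts of the protein synthesis machinery, were lower in cDC2 in 66 of 79 tested genes and higher in 0, with a median log2 fold change of -2.17. With the length trend taken out 42 fell, with a median of -1.16, and with all 36 libraries in the fit 0 fell, with a median of -2.18. Their share of all counts was 0.602% to 0.852% in cDC2 libraries and 1.32% to 3.54% in cDC1 libraries. Rpl13a had 99.1, 75.4 and 41.2 CPM in cDC2, against 1043, 707 and 490.4 CPM in cDC1, with -3.33 ± 0.41 (adjusted p = 2.71e-05). NADH dehydrogenase subunits of the respiratory chain fell in 7 of 47 and cytochrome c oxidase subunits in 4 of 12, and with the length trend taken out in 1 and 2. Their median log2 fold changes were -1.02 and -1.27, and -0.13 and -0.21 with the length trend taken out. With all 36 libraries in the fit 0 of either family were called. The count of dehydrogenase subunits was 1 without cDC1 replicate 2 or cDC2 replicate 5, 2 without cDC2 replicate 4 or cDC2 replicate 6 and 4 without cDC1 replicate 1, and that of oxidase subunits 1 without cDC2 replicate 5 and 2 without cDC1 replicate 2 or cDC2 replicate 6. Unconventional myosins rose in 4 of 17 and fell in 0, and the number that rose was 2 without cDC1 replicate 2. Myo1e, a myosin of phagocytic cups, had 205, 220.3 and 168 CPM in cDC2, against 10.3, 6.83 and 13.2 CPM in cDC1, with 4.30 ± 0.54 (adjusted p = 2.97e-05). Of the solute carriers 19 of 208 were higher and 8 lower, the lower ones a smaller share than the 6.14% of all tested genes, and the number higher was 8 without cDC2 replicate 5 and 11 without cDC1 replicate 2. The number lower was 4 without cDC2 replicate 4 and 5 without cDC1 replicate 2 or cDC2 replicate 6.

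The genes with the smallest adjusted p outside the lists were also named after their values were seen. Slc16a10, an aromatic amino acid transporter, had 771, 1029.7 and 763 CPM in cDC2, against 35.1, 32.8 and 33.8 CPM in cDC1, with 4.66 ± 0.50 (adjusted p = 4.9e-06). Slc7a8, another amino acid carrier, had 1109.7, 1439.8 and 920.5 CPM in cDC2, against 70.1, 66.6 and 95.2 CPM in cDC1, with 3.90 ± 0.47 (adjusted p = 2.15e-05). Slc37a2, a sugar phosphate transporter of macrophages, had 1295, 1605 and 1306 CPM in cDC2, against 64.2, 108 and 97.5 CPM in cDC1, with 3.96 ± 0.49 (adjusted p = 2.71e-05). All 3 transporters lay above cDC1 in each cDC2 library. Anpep (CD13) had 3.43 ± 0.41 (adjusted p = 2.15e-05), Nrp2, a semaphorin co-receptor, 3.39 ± 0.44 (adjusted p = 3.66e-05), Dab2, an endocytic adaptor, 4.38 ± 0.58 (adjusted p = 4.76e-05), and Axl, a receptor for dying cells, 2.70 ± 0.42 (adjusted p = 0.000214). On the other side Lsp1, a leukocyte actin-binding protein, had 94.8, 70.2 and 59.9 CPM in cDC2, against 575, 1287 and 872 CPM in cDC1, with -3.58 ± 0.36 (adjusted p = 2.46e-06). Rnase6, a secreted ribonuclease, had 4.29, 2.84 and 3.74 CPM in cDC2, against 40.2, 116 and 112 CPM in cDC1, with -4.65 ± 0.51 (adjusted p = 6.07e-06). Plac8 had 1.88, 1.81 and 0 CPM in cDC2, against 82.1, 215 and 220.4 CPM in cDC1, with -6.63 ± 0.87 (adjusted p = 4.94e-05), and Kmo, an enzyme of tryptophan breakdown, had 2.14, 6.46 and 0 CPM in cDC2, against 65.9, 84.5 and 186 CPM in cDC1, with -4.84 ± 0.69 (adjusted p = 0.000115).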
